A study of Homo sapiens with 12 samples.

Results

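The genes described are 32 that encode proteins of the nuclear pore complex or dock directly on it, taken as a fixed list of symbols and matched to the Ensembl gene identifiers of the count table, which holds 61860 genes. All 32 were found and all had a mean count above 2, so that none was lost to the filter on low counts. They have 479 annotated transcripts among 251121. HEK293 Flp-In T-REx cells, a human embryonic kidney line with a single recombination site for transgenes, were compared in 2 versions. In both, doxycycline induces chained miRNAs that deplete the endogenous PGC-1α together with an RNAi-resistant, FLAG-tagged PGC-1α, which is full length in WT-res and lacks the arginine/serine-rich (RS) domain in ΔRS-res. Both lines received 1 µg/ml doxycycline for 6 days, and RNA was taken from whole cells or from the cytoplasmic fraction, in 3 replicates each from consecutive passages (12 libraries). A line without induction or without the rescue protein was not analysed here, so every difference given is ΔRS-res against WT-res, and an effect of the RS domain cannot be told apart from other differences between the lines.

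The nuclear pore complex is a channel through the nuclear envelope by which mRNA leaves the nucleus and proteins enter it. An outer ring (the Y complex) and an inner ring form the scaffold, membrane nucleoporins anchor it, proteins rich in phenylalanine and glycine repeats fill the central channel, filaments on the cytoplasmic face carry the platform where the helicase DDX19 releases exported mRNA, and a basket extends into the nucleus. The members were grouped accordingly: 9 outer ring, 5 inner ring, 3 central channel, 8 cytoplasmic face, 3 nuclear basket and 4 pore membrane genes. The study asked whether PGC-1α helps mRNAs leave the nucleus through its RS domain.

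One library, labelled as replicate 3 of WT-res whole-cell RNA, went against its label. DDX19B, which encodes that helicase, was at 12.1 to 15.2 CPM (the usual counts-per-million scale, here with edgeR's TMM library sizes over the 12 libraries) in the other 5 WT-res libraries, at 0.219 to 0.350 in the 6 ΔRS-res libraries and at 0.195 in this one. SDHA, a subunit of succinate dehydrogenase, was at 68.1 to 77.2, 326 to 382 and 328 CPM in the same order. PPARGC1A, the gene of PGC-1α, counts endogenous and introduced copies together and so does not measure the depletion. It was at 552 to 682, 296 to 486 and 487 CPM. This library, called the doubtful library below, was kept under its label, and results that rest on it are given with and without it. Library totals were 90333190 to 144628005 counts, of which the members took 0.521% to 0.602%. Of 7 HEK293 markers, VIM, NEFL, KRT8 and KRT18 were at 69.2 CPM or more in every library, PAX2 and LHX1 at 1.64 to 5.81 CPM and NEFM at 0.258 to 0.694 CPM. PTPRC, HBB, PECAM1, DCN and ALB, which mark leukocytes, red cells, endothelium, fibroblasts and hepatocytes, were at 0.125 CPM or less. Another fibroblast marker, COL1A1, was at 2.98 to 6.64 CPM. MT-CO1, a mitochondrial transcript, was at 5615 to 9442 CPM in whole-cell and at 241 to 929.6 CPM in cytoplasmic libraries. NEAT1, a nuclear RNA, was at 207 to 328 and at 74.7 to 129 CPM. MALAT1, another nuclear RNA, was at 1299 to 3076 and at 993 to 1783 CPM, with overlap. RNA named as nuclear was thus present in the cytoplasmic libraries, and how it came there was not tested. The study reported western blots for SSRP1 without nuclear contamination of its cytoplasmic fractions.

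Per unit of transcript length (TPM, computed from annotated lengths), every nuclear pore gene was expressed in every library. The levels given here are means over the 12 libraries. In the inner ring, NUP205, a large scaffold protein, was highest at 144 TPM and NUP35, which contacts the membrane, lowest at 27.8 TPM. In the outer ring, SEC13, which also serves in COPII coats, stood at 131 TPM and AHCTF1 (ELYS), which recruits the Y complex to chromatin, at 18.3 TPM, the lowest mean of all members, although NUP210 was below it in every cytoplasmic library. On the cytoplasmic face the extremes were NUP88, a partner of NUP214, at 103 TPM and GLE1, the activator of DDX19, at 28.6 TPM. The central channel spanned 43.5 TPM for NUP54 to 54.8 TPM for NUP58, with ranges over the whole-cell libraries (30.5 to 42.4 and 44.1 to 53.3) that did not overlap. In the basket NUP153 was highest at 88.7 TPM and TPR, its filament-forming component, lowest at 53.0 TPM. In the pore membrane group NDC1, a transmembrane anchor, was highest at 48.5 TPM and POM121C lowest at 32.9 TPM, an order that differs by fraction: in cytoplasmic libraries POM121 (median 40.4 TPM) was highest and NUP210 (median 9.60 TPM) lowest, and in whole-cell libraries NUP210 (50.2 to 89.2 TPM) overlapped with NDC1 (60.8 to 78.3 TPM). POM121 and POM121C share 38.9% and 41.3% of the 100-base windows of their canonical transcript with other genes, chiefly each other. AHCTF1 shares 31.5% with AHCTF1P1, NUP62 shares 15.0% with a readthrough gene and IL4I1, and RANBP2 shares 14.6% with its RGPD copies, so that the split of reads for these genes is uncertain.

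PGC-1α is known to coactivate NRF1, GABPA and ERR at promoters, and their motifs were sought on both strands from 250 bases before to 50 bases after the RefSeq start (GRCh38.p14). Promoters were matched for 29 members and not for AHCTF1, GLE1 and NUP43. The NRF1 letters (GCGC, then AT, AC or GT, then GCGC) occurred in 3 of them, NUP107, NUP50 and NUP62, and in 2.77% of 35116 promoters of all genes. The GABPA letters CCGGAAGT occurred in 7 members (NUP160, NUP35, NUP54, NUP58, POM121, POM121C and SEC13) and in 4.14% of all promoters. The ERR letters TCAAGGTCA occurred in no member and in 0.353% of all promoters. The windows of NUP35, NUP58, NUP62 and NUP107 are shown with the motif in capitals, 5′ to 3′ on the strand of the gene, and the other matches are not.
NUP35, chr2:183124338-183124361 (+): gcgcaggtCCGGAAGTtacgcaac
NUP58, chr13:25301550-25301573 (+): acggttacACTTCCGGcgggctac
NUP62, chr19:49929546-49929571 (-): ggcccagtGCGCATGCGCagccgcgc
NUP107, chr12:68686886-68686911 (+): ctgaagtcGCGCATGCGCtagatggg
In NUP58 the GABPA letters lie on the opposite strand. These matches are letters in a window, and binding was not measured in the data used here. In whole-cell RNA, members with NRF1 letters were at -0.17 to 0.17 (log2, ΔRS-res over WT-res) and those with GABPA letters at -0.85 to 0.15. In the 6 cytoplasmic libraries they were at 0.07 to 0.11 and at -0.60 to 0.07.

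The clearest difference between the lines was in the inner ring, where NUP35 was lower and NUP155, a scaffold protein that binds NUP35, was higher in ΔRS-res. NUP35 (ENSG00000163002, chromosome 2 of GRCh38, 183117513 to 183161680) was at 35.0, 40.8 and 37.8 CPM in WT-res cytoplasm and at 24.8, 26.1 and 23.5 CPM in ΔRS-res cytoplasm. In whole-cell RNA it was at 24.5, 30.2 and 19.1 CPM in WT-res and at 13.5, 14.9 and 12.8 CPM in ΔRS-res. The groups did not overlap in either fraction, and the third WT-res whole-cell value, from the library that went against its label, was the lowest of its group. In whole-cell RNA 5 members and 9.52% of 26794 genes were lower without overlap, and 4 members and 9.47% were higher. In the 6 cytoplasmic libraries 5 members and 9.01% of 25946 genes were lower without overlap, and 4 members and 8.37% were higher. NUP35 fell by 0.60 on the log2 scale in the 6 cytoplasmic libraries (SE 0.0907, n = 3 each, edgeR adjusted p = 0.0185). It no longer passed when WT-res 3, ΔRS-res 1 or ΔRS-res 2 was left out, and over 11 alternatives the adjusted p reached 0.106. The study retained 4 cytoplasmic libraries (WT-res 1 and 3, ΔRS-res 1 and 2), in which NUP35 fell by 0.49 (SE 0.0606, n = 2 each, edgeR adjusted p = 0.00388). In whole-cell RNA the difference was -0.85 with an edgeR adjusted p of 0.211 (SE 0.171, n = 3 each), and -1.01 with an adjusted p of 0.00917 (SE 0.118) without the doubtful library. Over 12 alternative fits of whole-cell RNA the NUP35 value lay between -1.01 and -0.67, with adjusted p from 0.00137 to 0.728.

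NUP155 (ENSG00000113569, chromosome 5, 37288137 to 37371106) was at 506, 525 and 619.7 CPM in WT-res and at 666, 675 and 676 CPM in ΔRS-res whole cells. In the cytoplasm its values were 528, 581 and 554 CPM in WT-res and 701, 706 and 698 CPM in ΔRS-res. All ΔRS-res libraries were above all WT-res libraries of the same fraction, as for 9.47% of genes in whole-cell RNA and 8.37% in the cytoplasm. NUP155 rose by 0.40 on the log2 scale in the 4 cytoplasmic libraries (SE 0.0465, n = 2 each, edgeR adjusted p = 0.00326). With 6 libraries the value was 0.35, with an edgeR adjusted p of 0.0712 (SE 0.0722, n = 3 each), and in whole-cell RNA 0.28 (edgeR adjusted p = 0.248), or 0.36 without the doubtful library (edgeR adjusted p = 0.0313). The other inner ring genes, NUP205, NUP188 and NUP93, lay between -0.10 and 0.15 in the 4 cytoplasmic libraries and did not pass the test.

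**Figure D1:**
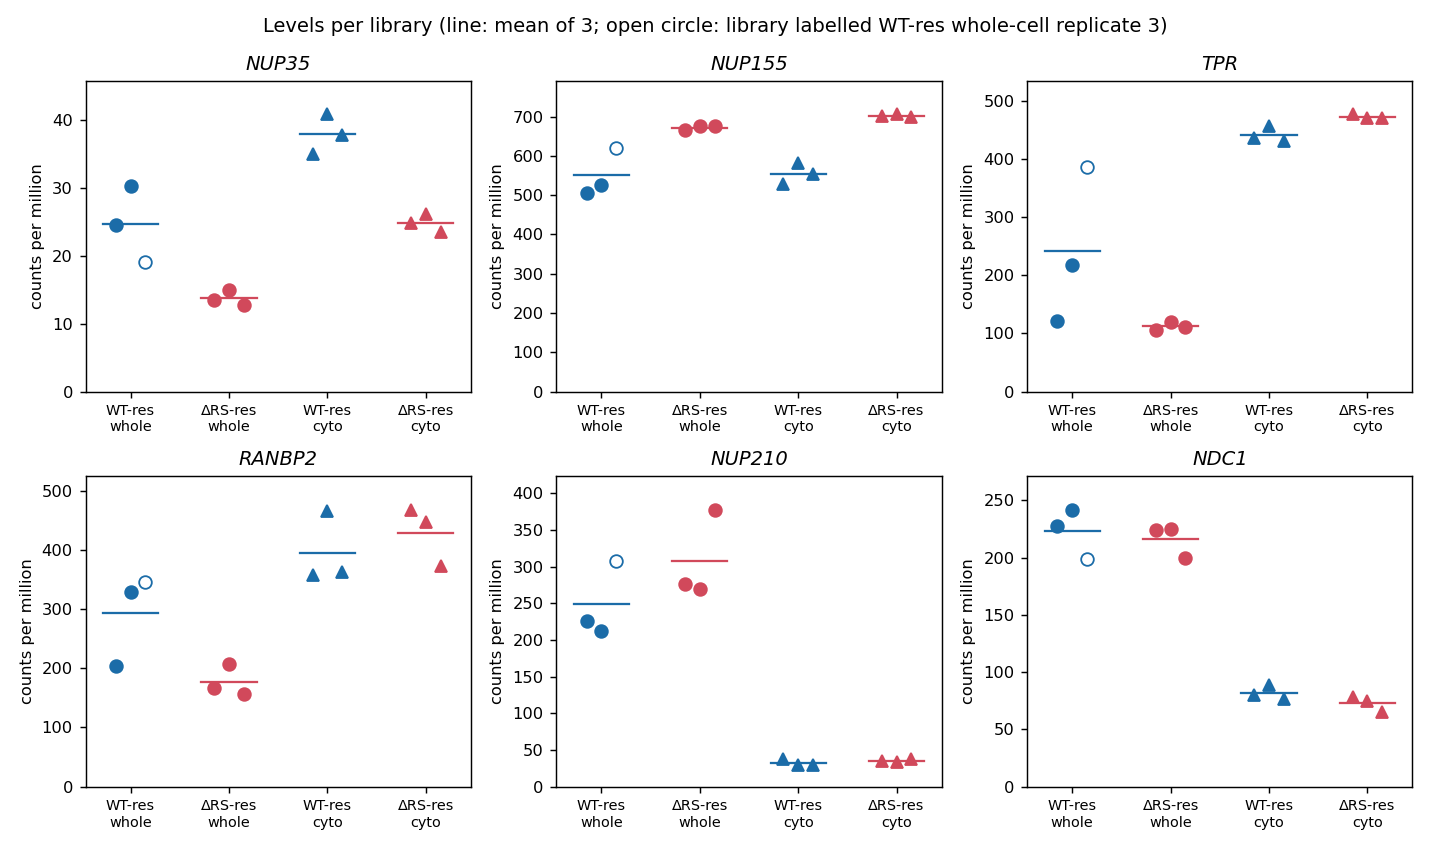
CPM in each library for 6 nuclear pore genes, by line (WT-res blue, ΔRS-res red) and fraction (circles whole-cell, triangles cytoplasmic), with horizontal lines at the mean of 3 and an open circle for the doubtful library. NUP35 is lower and NUP155 higher in ΔRS-res in both fractions, and NUP210 and NDC1 are lower in cytoplasmic RNA of both lines.

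Genes around NUP35, and most genes around NUP155, differed between the lines in the same direction as these members. Of the expressed genes (log2 CPM above 1) that start within 5 Mb of NUP35, 21 of 21 were lower in ΔRS-res in whole-cell RNA with or without the doubtful library, and in the cytoplasm with 4 or 6 libraries. Their median log2 fold change was -0.65 in whole-cell RNA, -0.65 in the 4 and -0.66 in the 6 cytoplasmic libraries. Around NUP155, 31 of 33 genes were higher in the cytoplasm, with a median of 0.33 in 4 and in 6 libraries, and 23 of 35 in whole-cell RNA, with a median of 0.12. Around the other 30 members the medians lay between -0.05 and 0.11 in the 6 cytoplasmic libraries, NUP205 on chromosome 7 (0.02) among them. In whole-cell RNA they lay between -0.1 and 0.15, a range that holds the 0.12 around NUP155. Without the doubtful library the whole-cell median around NUP155 was 0.18, against -0.12 to 0.12 around the other 30. The part of these surroundings in the values of NUP35 and NUP155 was not tested.

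In whole-cell RNA no member passed an edgeR adjusted p of 0.05 with all 6 libraries, as for all genes (0% of 26794 called). At an unadjusted p under 0.05 there were 7 members, against 12.6% of all genes, and 4 of them (AHCTF1, NUP35, RANBP2 and TPR, all lower) also passed a log2 fold change of 0.5 in size, against 6.36%. DESeq2 called 4 at an adjusted p, against 3.97%. The median over the members was -0.01 and that of all genes 0.00. Without the doubtful library NUP35 and NUP155 were called, against 2.06% of 26763 genes. With the replicate number as a block, which the whole-cell libraries allow because same-numbered libraries deviated together, edgeR called 7 members at an adjusted p under 0.05, against 7.95% of all genes. AHCTF1, NUP35, NUP54 and RANBP2 were then lower and NUP155, GLE1 and NUP210 higher in ΔRS-res, and 10 members were called with the block when the doubtful library was left out, against 16.4%.

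TPR and RANBP2 had the largest standard errors of the members in whole-cell RNA. TPR (chromosome 1, 186311652 to 186375693), which forms filaments of the basket and takes part in mRNA quality control, was at 121, 218 and 387 CPM in WT-res and at 106, 119.9 and 111 CPM in ΔRS-res whole cells. In the cytoplasm it was at 430.3 to 457 CPM in WT-res and at 470.5 to 477 CPM in ΔRS-res. The WT-res whole-cell libraries thus differed among themselves over 3-fold, and the highest of them is the one that went against its label. The whole-cell value of TPR was -1.11 (SE 0.356, n = 3 each, edgeR adjusted p = 0.262), or -0.61 without that library (SE 0.213, edgeR adjusted p = 0.177), and -1.43 without WT-res replicate 1, where it passed (edgeR adjusted p = 0.0333). RANBP2, the filament protein that binds Ran, was at 204, 329 and 346 CPM in WT-res and at 166, 207 and 157 CPM in ΔRS-res whole cells, groups that overlap, and its value was -0.74 (SE 0.203, edgeR adjusted p = 0.219), or -0.61 without the doubtful library. AHCTF1 was at 70.5, 97.9 and 107 against 60.0, 69.7 and 66.2 CPM, without overlap, as for 9.52% of genes in this direction. Its value was -0.50 (SE 0.149, edgeR adjusted p = 0.240), or -0.39 without the doubtful library. Both also passed without WT-res replicate 1, at -0.94 and -0.66 (edgeR adjusted p = 0.0311 and 0.0283). That fit leaves replicate 2 and the doubtful library in WT-res.

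These whole-cell differences went with base composition. Over the 32 members, the percentage of G and C in the canonical transcript and the whole-cell log2 fold change had a Spearman correlation of 0.79, and of 0.73 without the doubtful library. Over 10294 expressed coding genes, which share the same libraries, it was 0.67 and 0.52. In the 6 cytoplasmic libraries it was 0.35 over the members and 0.27 over the coding genes. For the interaction of fraction and line, described below, it was -0.61 and -0.51, or -0.53 and -0.41 without the doubtful library. TPR, RANBP2, AHCTF1, NUP35 and NUP54 have 38.5% to 40.3% G and C, and NUP210 has 58.4%. In the same range as the first 5 lie NUP37 (38.5%), NDC1 (38.8%) and NUP107 (39.8%), with whole-cell values of -0.02, -0.06 and -0.17. NUP155, at 41.6%, was at 0.28. The part of base composition in the differences was not tested.

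**Figure D2:**
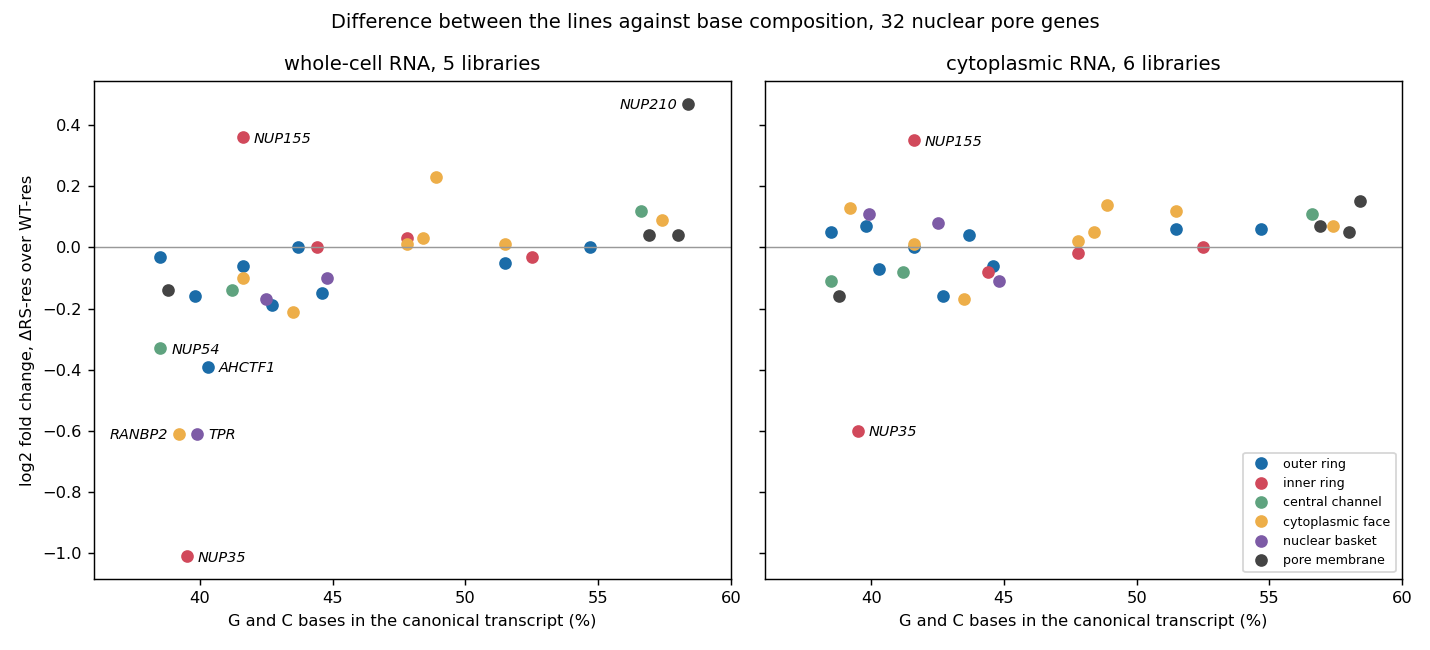
Log2 fold change of ΔRS-res over WT-res for 32 nuclear pore genes against the percentage of G and C bases in the canonical transcript, in 5 whole-cell libraries, the doubtful one left out (left), and in 6 cytoplasmic libraries (right), coloured by position in the pore. NUP35, TPR and RANBP2 lie lowest in whole-cell RNA, NUP37 and NDC1 lie near 0 at a like base composition, and NUP155 lies above 0.

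In the cytoplasm, 9 of 32 members passed an edgeR adjusted p of 0.05 in the 4 libraries of the study, against 22.1% of 25810 genes (11.4% lower and 10.7% higher). NUP35 fell, and 8 rose: NUP107 and SEC13 of the outer ring, NUP155 of the inner ring, NUP62 of the central channel, RANBP2 and NUP214 of the cytoplasmic face, NUP50 of the basket and POM121C of the pore membrane. Apart from NUP155 the rises were 0.16 to 0.37 on the log2 scale. With all 6 libraries NUP35 alone remained past the threshold, against 1.51% of 25946 genes, and with each of the other 8 choices of 4 libraries no member was called. The count of 9 thus depends on which libraries were set aside. The share of all genes called in those 8 fits is not given, so their lack of calls is not a result about the members. In the same libraries no member met the study's threshold at gene level, which 13.1% of genes did. RANBP2 was at 357, 465 and 363 CPM in WT-res and at 468, 447 and 372 CPM in ΔRS-res cytoplasm, so that the second WT-res and the third ΔRS-res library, the ones set aside, fell among the values of the other line. NUP50, a basket protein that helps release import cargo, was at 193, 251 and 199.7 CPM in WT-res and at 236, 238 and 202 CPM in ΔRS-res cytoplasm. NUP214, which anchors DDX19 to the pore, was at 119.9, 149 and 122 against 148, 144 and 131 CPM. SEC13 was at 129, 149 and 131 against 143, 148 and 133 CPM, and POM121C at 85.1, 99.2 and 82.8 against 97.9, 94.3 and 86.4 CPM. In each of these the highest WT-res value was that of replicate 2 and the lowest ΔRS-res value that of replicate 3, and the groups overlapped.

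**Figure D3:**
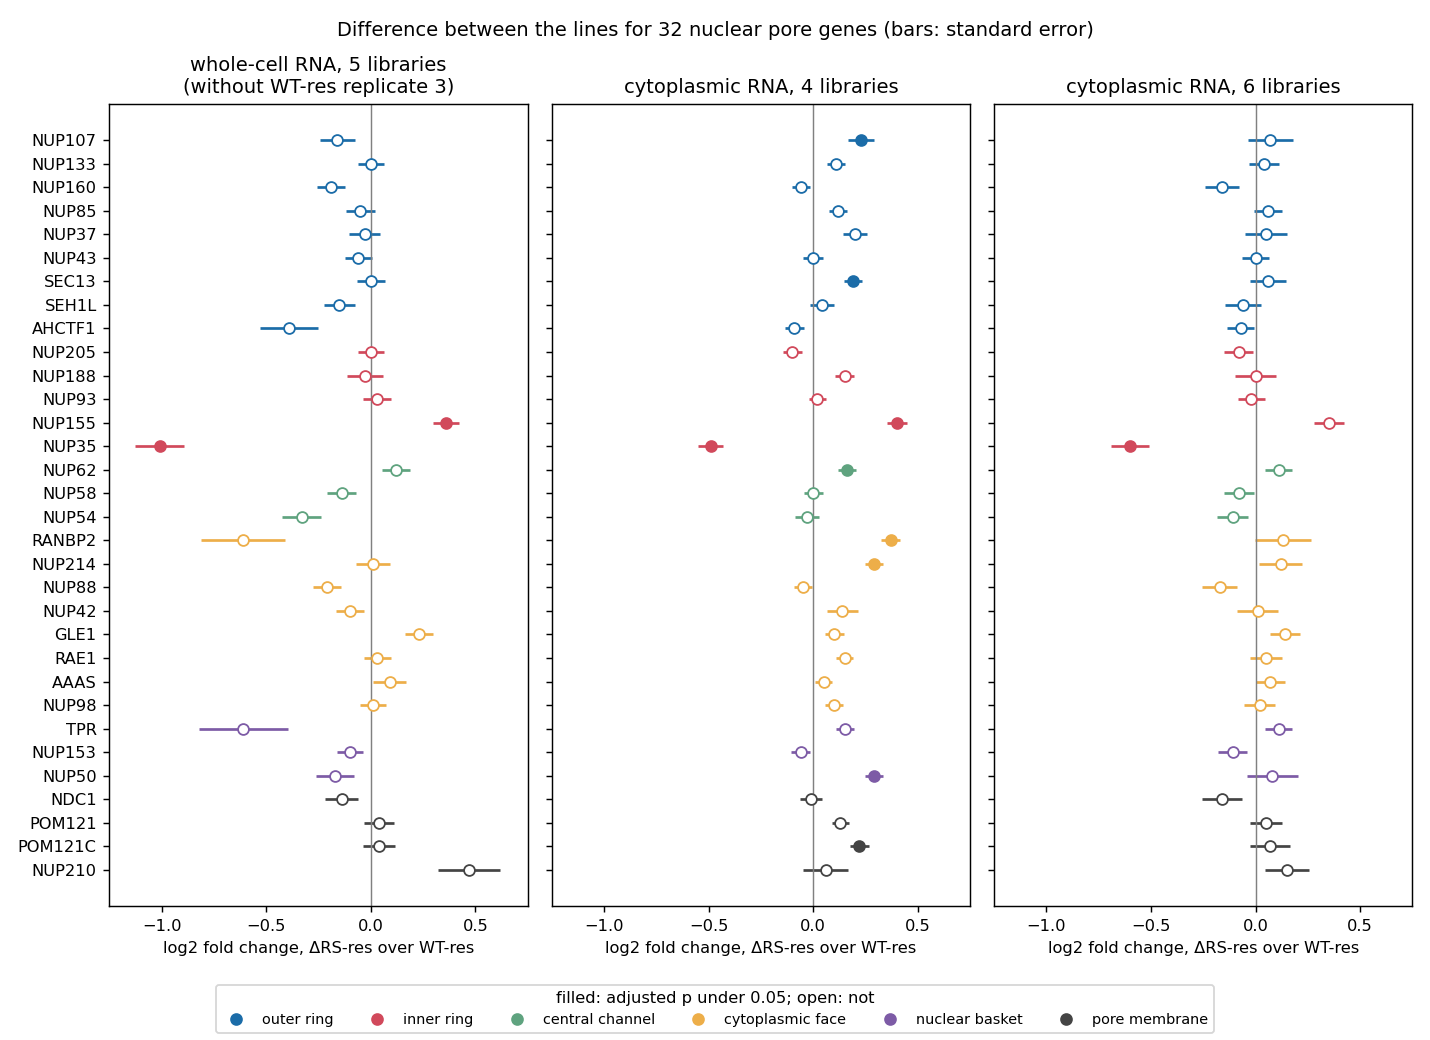
Log2 fold change of ΔRS-res over WT-res with its standard error for 32 nuclear pore genes, coloured by position in the pore, in 5 whole-cell libraries, the doubtful one left out (left), in 4 cytoplasmic libraries (middle) and in 6 (right), filled where the edgeR adjusted p is under 0.05. NUP35 is filled in all panels, 9 genes are filled in the middle panel and 1 in the right panel.

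Of the nucleoporins that the study assayed further, NUP62, a central channel protein, was at 104, 110.3 and 103 CPM in WT-res and at 113, 115 and 112 CPM in ΔRS-res cytoplasm. The groups did not overlap, as for 8.37% of genes in this direction. The value was 0.16 in 4 libraries (SE 0.0422, n = 2 each, edgeR adjusted p = 0.0402) and 0.11 in 6 (SE 0.0653, n = 3 each, edgeR adjusted p = 0.643, and 0.411 to 0.918 over 11 alternatives). NUP58, its channel partner, was at 180.3, 200.3 and 189.6 against 182, 182 and 173 CPM in the cytoplasm. NUP98, which binds RAE1 and mRNA export factors, was at 208, 234 and 215 against 225, 221 and 215 CPM. Both overlapped between the lines, with log2 values of -0.08 (SE 0.0728) and 0.02 (SE 0.0741) in 6 libraries. NUP107, the Y complex protein that was stained, was at 151, 183 and 165 against 177, 189 and 154 CPM, again overlapping, and its rise of 0.23 in 4 libraries (SE 0.0621) was 0.07 in 6 (SE 0.108).

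The study's unit is the transcript, called at an unadjusted p under 0.05 (from DESeq2 there, from edgeR here) and a log2 fold change above 0.5 in size. By that rule 27 of 410 tested transcripts of the members were called in whole-cell RNA (22 lower), which is 6.59% against 5.25% of all transcripts (3.44% lower), and 25 of 409 without the doubtful library (6.28% of all). In the cytoplasm 37 of 399 were called with 4 libraries (11 lower), against 8.78% of all transcripts (4.66% lower), and 16 of 400 with 6 (10 lower), against 4.06% (2.13% lower). No transcript of a member passed an edgeR adjusted p of 0.05 in these comparisons, which 0%, 0.0132%, 0% and 0.0241% of all transcripts did, in the same order. Most called transcripts were minor isoforms: of the 37, 29 held under 5% of their gene's counts and 4 held 10% or more. So are most transcripts of the members, of which 48 of 479 held 10% or more. NUP35-201, which holds 80.9% of the NUP35 counts, was lower in the 4 and in the 6 cytoplasmic libraries (log2 fold changes -0.51 and -0.56) and in whole-cell RNA (-0.84). The other 3 major ones, GLE1-206 (annotated as a target of nonsense-mediated decay), NUP214-202 and NUP37-209, were higher with 4 libraries (0.59, 0.52 and 0.59) and not called with 6. NUP58-206, an isoform with 11.2% of the NUP58 counts, was lower in whole-cell RNA (-0.60, SE 0.115), at 16.8, 19.7 and 20.8 against 11.4, 13.4 and 11.8 CPM, whereas NUP58-202, with 80.8%, was not called in any comparison. NUP62 was divided between NUP62-201 and NUP62-202 (40.6% and 35.4%), and NUP98-201 held 37.7% of the NUP98 counts, none of them called in the cytoplasm.

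The study defined a nuclear export target as a transcript that passes its threshold downwards in cytoplasmic RNA while whole-cell RNA shows no call. With 4 cytoplasmic libraries 9 of 389 transcripts of the members met this definition, against 4.32% of 115719 transcripts, and with 6 libraries 8 of 388, against 1.74%. No such transcript held 10% of its gene's counts, which 48 of all 479 transcripts of the members did. The largest share was 3.45% with 4 and 4.43% with 6 libraries. NUP88-230 and SEH1L-210 met the definition with both sets. NUP58-201, NUP98-207 and NUP98-214, transcripts of genes that the study assayed further, met it with 4 libraries and not with 6. They hold 1.35%, 0.0340% and 1.15% of their gene's counts. No transcript of NUP62 met it with the edgeR p-values used here. The study, with DESeq2, named NUP58, NUP62 and NUP98 among potential targets. By qRT-PCR, normalized to a small nuclear RNA and to a control line, it reported lower cytoplasmic and higher nuclear levels of each in ΔRS-res. Total levels were reported as unchanged. It also reported, by RNA immunoprecipitation, that PGC-1α bound these mRNAs through the RS domain. The other transcripts that met the definition with 4 libraries were AAAS-215, NUP133-202, NUP214-210 and NUP50-203. With whole-cell RNA taken without the doubtful library, NUP98-207 no longer met the definition. NUP35-201 did not, since it was also called in whole-cell RNA.

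Between fractions, 3 of the 4 pore membrane mRNAs were lower in cytoplasmic RNA in both lines, and 20 members in ΔRS-res and 14 in WT-res were higher. In ΔRS-res 20 members rose and 3 fell at an edgeR adjusted p of 0.05, against 41.1% of 26590 genes called (17.0% higher and 24.1% lower). That fit did not use the replicate number, which was taken to pair the fractions in ΔRS-res. The count with the number as a block is given with the alternatives at the end. In WT-res 14 rose and 3 fell, against 34.4% of 26583 (12.0% higher and 22.4% lower). Without the doubtful library the WT-res counts were 7 and 3, against 36.5% (13.9% higher and 22.6% lower). Comparing cytoplasmic with whole-cell libraries of the same line and number, 23 members were higher in all 6 pairs, against 25.1% of 26687 genes, and 3 lower, against 29.7%. Without the pair of the doubtful library these were 24 and 3, against 27.8% and 31.2%. In WT-res the number was not taken to pair the fractions, although the study's sample sheet lists same-numbered fractions under the same cell pellet. The pairs are used here only to set libraries side by side. A level is relative to the other RNA of its library, so that a higher share in the cytoplasm and a loss of other RNA during fractionation cannot be told apart.

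The 3 that fell were NUP210, NDC1 and POM121C, all with membrane-spanning segments. NUP210, a glycoprotein of the pore membrane, was at 213 to 308 CPM in WT-res and at 269 to 378 CPM in ΔRS-res whole cells, and at 29.5 to 37.3 and 33.6 to 37.8 CPM in the cytoplasm. It fell by 2.95 in WT-res (SE 0.162) and by 3.11 in ΔRS-res (SE 0.137) on the log2 scale, with edgeR adjusted p of 1.02e-05 and 2.29e-06 (n = 3 each). NDC1, at 199 to 242 CPM in whole cells and 65.1 to 89.0 CPM in the cytoplasm, fell by 1.45 and by 1.57. POM121C fell by 0.42 and by 0.50, and POM121 (-0.01 and -0.12) did not pass the test. For a set of 17 genes of the endoplasmic reticulum, cell surface and nuclear envelope, chosen after these values were seen, 15 were lower in the cytoplasm in each line, with medians of -2.09 in WT-res and -2.18 in ΔRS-res against -0.06 and -0.05 for all genes. EMD and TMPO, the other two, were at 0.28 and 0.15 in WT-res. The fraction was the supernatant of centrifugation after lysis in a hypotonic buffer for which no detergent is listed, and the part of membrane-bound RNA in these values was not tested.

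TPR was the member with the largest rise in the cytoplasm, by 2.08 on the log2 scale in ΔRS-res (SE 0.0721, n = 3 each, edgeR adjusted p = 1.03e-06). In WT-res the value was 0.87 (SE 0.338, edgeR adjusted p = 0.0802), and 1.35 without the doubtful library. RANBP2 rose by 1.28 in ΔRS-res (0.43 in WT-res) and AHCTF1 by 1.00 (0.58 in WT-res, also called). The difference of these differences was tested as an interaction of fraction and line. No member passed (0.00375% of 26687 genes did), and 3 members had an unadjusted p under 0.05 in edgeR, against 5.52% of all genes: TPR (1.20, SE 0.405, adjusted p = 0.698), RANBP2 (0.85, SE 0.267, adjusted p = 0.698) and AHCTF1 (0.41, SE 0.175, adjusted p = 0.846). DESeq2 called none at an adjusted p. With WT-res whole-cell replicate 1 left out, so that replicate 2 and the doubtful library remained, TPR, RANBP2 and AHCTF1 passed an edgeR adjusted p of 0.05 (1.53, 1.05 and 0.57). No member passed when the doubtful library was left out. TPR was then at 0.69 (SE 0.237), RANBP2 at 0.71 (SE 0.266) and AHCTF1 at 0.29 (SE 0.156), and the members with an unadjusted p under 0.05 were TPR, RANBP2 and NUP35 (0.38, SE 0.145), each with an edgeR adjusted p of 0.887. Lower RNA of a gene in the cytoplasm relative to the whole cell of ΔRS-res would appear as a negative interaction, and the lowest value among the members was -0.16 for NUP210 (SE 0.229), or -0.34 without the doubtful library (SE 0.198, edgeR adjusted p = 0.887).

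Transcripts annotated as retaining an intron held 4.46% to 5.43% of the members' counts in whole-cell libraries and 2.91% to 3.23% in cytoplasmic ones. The same share over all coding genes was 4.56% to 5.42% and 2.69% to 2.98%. Of 26 members with such a transcript, 20 had a lower share in every cytoplasmic than in every whole-cell library, against 49.2% of 8873 coding genes with one. NUP210 had a higher share in every cytoplasmic library (19.5% to 25.0%, against 5.79% to 7.74% in whole-cell libraries), as did 1.71% of these genes. In NUP58 the share was 4.49% to 6.16% in whole-cell and 1.07% to 1.79% in cytoplasmic libraries, and in NUP107 it was 2.05% to 4.13% and 0.531% to 0.719%. NUP98, at 11.2% to 13.1% and 9.87% to 13.4%, was one of the 5 members whose groups overlapped.

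Among 29 transport receptors and Ran cycle genes, which carry cargo through the pore, 9 rose and 3 fell in the 4 cytoplasmic libraries and none passed with 6. Of all genes, 10.7% rose and 11.4% fell with 4 libraries, and 1.51% were called with 6. With 4 libraries IPO13, an importin that also exports, rose by 0.50 and XPOT, the tRNA exporter, fell by 0.38 (SE 0.0502 and 0.0563). KPNA2, an importin alpha, rose by 0.34 with 4 libraries (SE 0.0441), and XPO1, the exporter of proteins with a nuclear export signal, was at 0.12 without passing the test. With 6 libraries KPNA2 was at 0.13 (SE 0.118) and XPO1 at -0.01 (SE 0.0993), and the median of the list was -0.01. Among 17 mRNA export factors, DDX19B fell in the cytoplasm by 5.47 with 4 and by 5.49 with 6 libraries (edgeR adjusted p = 3.25e-05 and 4.01e-06), and by 5.70 in whole-cell RNA without the doubtful library (edgeR adjusted p = 2.96e-05). Its near-identical paralogue DDX19A rose by 0.33 with 4 libraries, where NXF1, the main mRNA export receptor, rose by 0.42. ALYREF, ENY2 and THOC1 were the other export factors that rose there. Of the 17, 5 thus rose and 1 fell with 4 libraries, against 10.7% and 11.4% of all genes. With 6 libraries DDX19B alone passed. NUP214 and GLE1, the pore proteins that anchor and activate DDX19, were at 0.12 and 0.14 with 6 libraries, without passing the test.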

How the data were processed

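RNA-seq of 12 libraries was used. The authors trimmed reads with Trim Galore, aligned them to GRCh38 with STAR and quantified transcripts with RSEM, and deposited expected counts per transcript without normalization. Tool versions are not given in the sources used here. Libraries were prepared after rRNA depletion. Before fitting, transcript values were summed per gene where needed and rounded to integers. Positions, types and lengths come from GENCODE 44, which held 99.83% of the genes. Genes or transcripts with a mean count above 2 were fitted with edgeR 4.0.16 (R 4.3.3; TMM, quasi-likelihood test) over the whole table, with Benjamini-Hochberg adjusted p under 0.05 for genes and the study's threshold for transcripts. The filter and test were tried on simulated data. CPM use TMM library sizes over all libraries. TPM were computed from annotated lengths, not RSEM's effective lengths, so they are approximate.

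The members, lists and tests were chosen with earlier results of these data known. Genes named are the members called in a comparison between the lines, NUP58, NUP62, NUP98 and NUP107, the members on chromosome arms found shifted earlier (NUP35, NUP155, NUP205), the highest and lowest per length of each group, and transcripts with 10% or more of such a gene's counts. TPR and AHCTF1 were singled out further, and the membrane protein set added, after their values were seen.

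Same-numbered libraries of the lines deviated together in whole-cell RNA (Pearson correlations of 0.464, 0.461 and 0.627 over 14935 genes) but not in the cytoplasm (-0.325, 0.558 and 0.455). Same-numbered fractions did so in ΔRS-res (0.420, 0.392 and 0.765) and not in WT-res (-0.161, 0.518 and 0.405), where the doubtful library is part of the whole-cell mean. The number was therefore taken to pair whole-cell libraries of the lines, and fractions in ΔRS-res. The study's sample sheet lists same-numbered fractions of both lines under the same cell pellet. Unless a block is named, the fits did not use this pairing. Libraries of 1 group are separate passages of 1 line, so p-values measure the spread between passages. No pair of them was a copy, with a chi-square per degree of freedom of at least 16.1.

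The alternatives tried were size factors of DESeq2 1.42.0, its Wald test, no filter, edgeR's filterByExpr or a mean count above 10, the study's threshold or an adjusted p, a replicate block, each library left out, other removals of cytoplasmic libraries, and the 10 libraries of the study for the interaction. Fits with the doubtful library left out of the interaction or the block were added after the values were seen.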

Additional observations from a re-analysis of the deposited data

How the results depend on the processing

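In whole-cell RNA the number of members called was 0, and 4 with the study's threshold or with DESeq2's Wald test, 7 with the replicate block, 10 with the replicate block when the library that went against its label was left out, and 0 to 3 with each library left out. In the 4 cytoplasmic libraries it was 9, and 0 with the study's threshold or with any of 8 other choices of 4 libraries, and 3 to 10 with a library left out, where a lone sample was assumed to vary like the others. In the 6 it was 1, and 2 with DESeq2's Wald test and 0 to 1 with a library left out: NUP35 lost its call without WT-res 3, ΔRS-res 1 or ΔRS-res 2. The interaction called 0 members, or 0 to 3 with a library left out. Between fractions WT-res gave 17 members and 2 to 11 with a library left out, ΔRS-res 23 and 14 to 21. Transcripts called numbered 27, 37 and 16 (whole-cell, 4 and 6 cytoplasmic libraries), each 0 at an adjusted p, and 13 to 26, 31 to 51 and 7 to 21 with a library left out. The replicate block gave 1 member in 6 cytoplasmic libraries, 0 for the interaction, 19 in WT-res and 26 in ΔRS-res between fractions, and 24 and 15 transcripts. The number was not taken to pair the lines in the cytoplasm or the fractions in WT-res, so the block there is only an alternative. Where available, shares of all genes or transcripts stand with the results above and are not repeated here. For the rest, these counts do not show whether the members differed from other genes. No paired analysis was possible for the 4 cytoplasmic libraries because they share only replicate number 1.

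Called values that changed sign all came from other choices of 4 cytoplasmic libraries, where none was called. Without WT-res 1 and ΔRS-res 1, NUP50 was at -0.04, NUP107 at -0.03, RANBP2 at -0.02 and POM121C at -0.02. Without WT-res 1 and ΔRS-res 2, NUP50 was at -0.04, NUP107 at -0.07 and SEC13 at -0.02. Without WT-res 3 and ΔRS-res 1, NUP50 was at -0.01 and POM121C at -0.02, and without WT-res 3 and ΔRS-res 2 NUP50 was at -0.03, NUP107 at -0.02, SEC13 at -0.02 and POM121C at -0.01. NUP35 stayed between -0.70 and -0.43 and NUP155 between 0.30 and 0.44 over the 16 alternatives. Of 3416 alternative values for members and their named transcripts, 3122 kept their side of the threshold and 2916 their direction as well; 206 that were called in neither fit lay on the other side of 0.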
